A study of Mus musculus with 10 samples.

Results

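The genes described here are 40 markers of dividing cells, 17 that act around S phase and 23 that act in mitosis. They were chosen by symbol from the gene lists of the files, where each symbol has 1 row, out of 33243 genes listed in at least 1 library. Their levels were read in 10 droplet libraries of single cells from mouse embryonic back skin, in basal, suprabasal, fibroblast and endothelial cells. At E15.5 and E16.5 the study compared control embryos with embryos of genotype MOFfl/fl/K14Cre (MOF cKO), in which Krt14-Cre deletes Kat8, the gene of the histone H4 lysine 16 acetyltransferase MOF. At E17.5 it compared a control with a QPCfl/fl/K14Cre embryo (QPC cKO), in which the same driver deletes Uqcrq, a subunit of respiratory complex III. There were 2 control libraries (replicates 2 and 3) and 2 MOF cKO libraries (replicates 5 and 6) at E15.5, 2 and 2 at E16.5, and 1 and 1 at E17.5. The labels name no treatment, the mice were of mixed C57Bl/6J and CD-1 background, and controls were wild-type or heterozygous littermates. Krt14-Cre acts in the epithelium, so fibroblasts and endothelial cells are not its targets. In MOF cKO replicate 6 at E15.5 the epithelium was a mosaic of deleted and undeleted cells.

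A cell copies its DNA in S phase and divides the copies in mitosis, and each step has its own set of genes. The Mcm2 to Mcm7 proteins form the helicase that opens the DNA, loaded with the help of Cdc6 and Cdt1 and completed by Cdc45 and Gins2. Pcna clamps the polymerase to DNA, Rrm1, Rrm2 and Tyms make nucleotides, Ccne1 and Ccne2 are the E cyclins that start S phase, and Uhrf1 carries DNA methylation to the new strand. In mitosis, Cdk1 with its cyclins Ccnb1, Ccnb2 and Ccna2 drives entry, and Cdc20 with Ube2c marks proteins for destruction at exit. Aurka, Aurkb, Birc5, Bub1, Cenpe, Cenpf, Ska1, Tpx2, Nusap1, Aspm, Kif11 and Hmmr serve spindle and kinetochore, Pbk is a kinase active in mitosis, Kif23 and Anln serve cytokinesis, and Mki67 and Top2a act on the chromosomes. In embryonic epidermis the basal layer holds most dividing keratinocytes, and suprabasal cells leave the cycle as they differentiate. Dermal fibroblasts and vessel cells also divide at these stages.

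Transcription of S phase genes is known to be driven by E2F factors, and that of mitosis genes through CCAAT boxes and the cell cycle homology region (CHR) read by the DREAM and MuvB complexes. Promoter windows from 250 bases before to 50 bases after the start were found for 32 of the 40 genes, taken from RefSeq on GRCm38.p6, and not for Mcm4, Gins2, Ccne2, Ccna2, Aurkb, Tpx2, Pbk and Ska1. The 170 bases before the start are shown for Mcm5 and Mcm7 as S phase genes and for Cdk1 and Cdc20 as mitosis genes that recur in the results below. They lie at chr8:75109339-75109508 on the plus strand (Mcm5), chr5:138171884-138172053 on the minus strand (Mcm7), chr10:69352913-69353082 on the minus strand (Cdk1) and chr4:118437344-118437513 on the minus strand (Cdc20). Capitals mark the motifs searched on either strand, which were TTTGAA for the CHR, CCAAT for the CCAAT box, and TTTCCCGC, TTTGGCGC or TTTCGCGC for E2F. In Mcm5 the first capital stretch holds 2 E2F motifs that overlap. By the GENCODE gene spans on GRCm38, the Mcm5 stretch lies upstream of the gene, those of Cdk1 and Cdc20 reach into the first bases of the gene, and that of Mcm7 lies inside the span.
Mcm5: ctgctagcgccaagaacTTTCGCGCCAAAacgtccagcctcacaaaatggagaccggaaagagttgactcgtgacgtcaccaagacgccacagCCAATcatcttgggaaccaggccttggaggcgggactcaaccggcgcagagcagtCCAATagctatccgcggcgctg
Mcm7: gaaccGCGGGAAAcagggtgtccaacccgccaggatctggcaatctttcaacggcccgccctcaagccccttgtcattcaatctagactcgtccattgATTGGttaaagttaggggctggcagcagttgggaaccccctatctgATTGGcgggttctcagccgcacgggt
Cdk1: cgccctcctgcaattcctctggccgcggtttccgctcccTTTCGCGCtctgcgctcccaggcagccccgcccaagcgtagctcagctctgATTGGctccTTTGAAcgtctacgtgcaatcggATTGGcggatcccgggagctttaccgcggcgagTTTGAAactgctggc
Cdc20: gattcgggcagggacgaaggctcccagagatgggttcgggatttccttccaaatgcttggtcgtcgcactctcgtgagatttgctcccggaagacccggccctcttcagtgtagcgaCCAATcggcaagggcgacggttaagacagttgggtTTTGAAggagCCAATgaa

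The CHR letters were in the windows of 13 of 18 mitosis genes and of 2 of 14 S phase genes, Mcm2 and Cdc45, against 17.9% of all 32851 windows. A CHR and a CCAAT box together were in 12 of the 18 mitosis windows and in 2 of the 14 S phase windows, against 6.95% of all windows. The E2F letters were in 7 of 14 S phase windows (Mcm3, Mcm5, Mcm6, Mcm7, Cdc6, Cdt1 and Uhrf1) and in that of Cdk1 among 18 mitosis genes, against 1.84% of all windows. A CCAAT box, with or without a CHR, was in 10 of 14 S phase and 15 of 18 mitosis windows, against 37.4% of all windows. These matches are letters in a window and do not show that a factor binds there.

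Levels are given as CPM, the UMIs (unique molecular identifiers, counted molecules) of a gene per 1000000 UMIs of all cells of a class in a library. The libraries, not the cells, are the replicates, and values are listed in order of replicate number. The libraries held 149503071 to 203392303 UMIs at E15.5, 13609345 to 42351503 at E16.5 and 195567343 and 202506985 at E17.5, and between 716 and 10653 cells were kept. Counting was at the 3′ end, so levels are compared between libraries and not between genes. Stage, chemistry and gene list changed together, since the E16.5 libraries used an older chemistry and a shorter gene list, so their parts in a difference between stages cannot be told apart. Kat8 in basal cells stood at 13.02 and 13.7 CPM in control and 13.4 and 10.3 in MOF cKO at E15.5, and at 16.4 and 14.9 against 8.31 and 4.51 at E16.5, which are 3 and 2 UMIs. The groups overlapped at E15.5 and not at E16.5, and the 3′ reads may lie outside the deleted part of the gene, in which case they check nothing. Uqcrq in basal cells at E17.5 was 103 CPM in control and 45.7 in QPC cKO. The E17.5 libraries shared 1702 barcodes, 20.7% of those of the control, while any other pair of the same chemistry shared under 0.75% of the smaller library. Of kept cells, 160 in the control (2.99%) and 41 in QPC cKO (0.670%) carried a shared barcode. Each library held all of the markers that the gates did not use, 5 of basal, 6 of suprabasal, 5 of fibroblast and 5 of endothelial cells, in the class they mark.

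Summed over the 17 S phase genes, basal cells of the E15.5 controls held 1293 and 1238 CPM, and those of MOF cKO replicates 5 and 6 held 916 and 1489. The 23 mitosis genes summed to 2670 and 2716 in control and 2366 and 2896 in MOF cKO. In both sums the MOF cKO libraries lay on either side of the controls, with the mosaic replicate 6 above and replicate 5 below. At E16.5 the S phase sum was 1524 and 1093 in control and 488 and 638 in MOF cKO, and the mitosis sum 3186 and 2499 against 407 and 1277. Both E16.5 MOF cKO libraries were below both controls in each sum, at 43.0% of the control mean for S phase and 29.6% for mitosis. Those 2 libraries held only 21 and 22 cells in the basal gate, against 239 and 464 in the controls. In each class a lower sum can come from fewer dividing cells or from less of each transcript per dividing cell, and a sum over cells does not tell these apart.

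**Figure D1:**
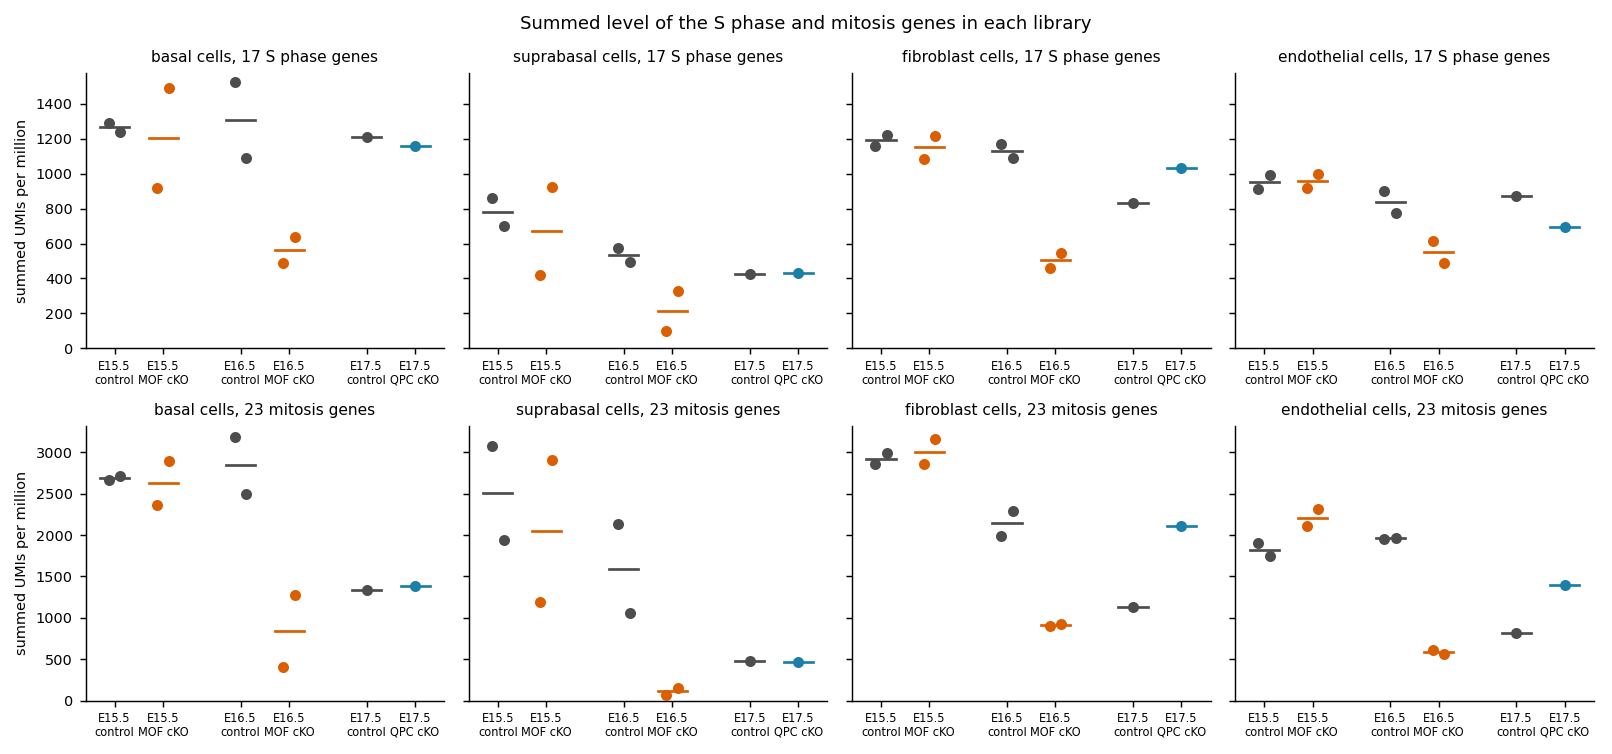
Summed CPM of the 17 S phase genes (upper row) and the 23 mitosis genes (lower row) in each library, by cell class, stage and group; points are libraries and lines are group means. At E16.5 the MOF cKO libraries lie below the controls in all 4 classes, while at E17.5 the QPC cKO library lies above the control for mitosis genes in fibroblasts (2111 against 1133).

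A member is called where edgeR's quasi-likelihood test gave an adjusted p (Benjamini-Hochberg, over all genes tested) below 0.05. In basal cells at E15.5, 0 of 40 members were called. The test called 0% of all 14364 genes and put 1309 (9.11%) at an unadjusted p below 0.05, while DESeq2 called 119. Of the 40 members, 2 had an unadjusted p below 0.05, DESeq2 called 0, and 17 log2 fold changes were below 0. The smallest p belonged to Ccnb1, which stood at 77.1 and 80.0 CPM in control and 83.9 and 98.8 in MOF cKO. Its groups did not overlap, but the log2 fold change of 0.36 (SE 0.10) had an adjusted p of 0.508 in edgeR. Cdc20 (0.39, SE 0.14), Aurka (0.37, SE 0.16) and Cdk1 (0.25, SE 0.11) followed at the same adjusted p. Mki67 was at 242 and 257 CPM in control and 193 and 281 in MOF cKO, and Top2a at 384 and 377 against 297 and 416. Pcna was at 178 and 173 against 149 and 211, Mcm5 at 77.9 and 70.3 against 42.1 and 83.8, and Ccne1 at 26.8 and 27.3 against 20.03 and 36.01. For these 5 genes replicate 5 lay below both controls and replicate 6 above both. Without replicate 5 edgeR called 7 members higher, and without replicate 6 it called 7 higher and 14 lower, in fits that called 747 and 7518 of all genes. Each of these fits held 1 MOF cKO library, so the spread came from the 2 controls alone and the lone library was assumed to vary like them. The 5 basal markers that the gate did not use summed to 3715 and 3886 CPM at the lowest and highest control and to 1143 and 2798 in MOF cKO, and their part in these levels was not tested.

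The same split between the MOF cKO embryos was seen in suprabasal cells at E15.5. The mitosis sum was 3075 and 1946 in control, 1196 in MOF cKO replicate 5 and 2912 in replicate 6, and the S phase sum was 861 and 702 against 422 and 926. Replicate 5 was the lowest of the 4 libraries in both sums, and the groups overlapped. Of the 40 members, 37 had a log2 fold change below 0, with a median of -0.23 in S phase and in mitosis genes, but edgeR called 0 members and 0% of 10819 genes (836, or 7.73%, with an unadjusted p below 0.05, and 49 called by DESeq2, no member among them). Ccnb2, with the largest change in size, stood at 74.4 and 45.7 CPM in control and 12.5 and 57.6 in MOF cKO. Its log2 fold change was -0.75 (SE 0.56, edgeR adjusted p = 0.721). Only for Cdc45 did the groups not overlap, at 15.9 and 13.1 in control and 6.81 and 11.7 in MOF cKO. Without the mosaic replicate 6, 17 members were called lower and the median over the members was -0.80, in a fit that called 1762 of 11374 genes, 731 of them lower. There too the spread came from the 2 controls alone. The 5 basal markers summed to 2527 and 3938 CPM at the lowest and highest control and to 420 and 1628 in MOF cKO in this gate. The fibroblast markers summed to 328 and 526 against 883 and 982, and the immune markers to 17.9 and 23.1 against 42.2 and 109. The erythroid markers were at 13330 and 21702 against 9331 and 10578. The part of these shifts was not tested.

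In E15.5 fibroblasts the S phase sum was 1161 and 1223 in control and 1085 and 1217 in MOF cKO, and the mitosis sum 2857 and 2994 against 2857 and 3161. The groups overlapped in both. edgeR called 0 of the 40 members and 0% of 16268 genes, while 2538 genes (15.6%) and 4 members had an unadjusted p below 0.05. DESeq2 called 494 genes, with 0 members. These sums rest on 4376 to 7389 cells a library, and the members' log2 fold changes ran from -0.17 (Cdc45) to 0.24 (Aspm).

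The endothelial cells kept at E15.5 held slightly more of the mitosis genes in MOF cKO. The mitosis sums were 1900 and 1748 in control and 2114 and 2310 in MOF cKO, while the S phase sums of 913 and 993 against 917 and 997 overlapped. Of the 23 mitosis genes, 20 had a log2 fold change above 0, with a median of 0.33, and 12 had an unadjusted p below 0.05, where 9.88% of all genes did. The edgeR test called 0 members, and 0.0963% of 10387 genes. DESeq2 called 25 genes and 0 members. Top2a stood at 235 and 207 CPM in control and 294 and 313 in MOF cKO, a log2 fold change of 0.50 (SE 0.10, adjusted p = 0.134). Ube2c was at 209 and 186 against 269 and 268 (0.49, SE 0.10, adjusted p = 0.148). The groups did not overlap for either gene, and neither was called. The immune markers summed to 102 and 113 CPM at the lowest and highest control and to 237 and 389 in MOF cKO in this gate. The fibroblast markers stood at 517 and 553 against 1082 and 1166, and the erythroid markers at 8660 and 11839 against 19555 and 22316. Kat8 was at 12.1 and 12.7 CPM in control and 4.53 and 2.88 in MOF cKO. What part these shifts had was not tested. The upper limit on detected genes left out 30.6% and 49.1% of endothelial cells in control. In MOF cKO it left out 30.9% and 49.0%. The cells left out had higher mitosis sums than those kept, 2468 and 2972 CPM in control and 2990 and 3255 in MOF cKO. The sums of kept cells therefore do not show whether the groups stay apart over all endothelial cells.

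At E16.5 the sums in basal cells of MOF cKO were lower. With gates on the unscaled UMIs of a cell, all libraries and the filter on low counts, edgeR called no single member. Of the 40 log2 fold changes, 36 were below 0, with a median of -0.76 over the S phase genes and -1.28 over the mitosis genes, against -0.11 over all 9454 genes tested. In edgeR 0 members were called, and 0% of all genes were called lower and 0.243% higher. An unadjusted p below 0.05 was found for 17 members, 6 of S phase and 11 of mitosis, against 20.3% of all genes. DESeq2 called 4 members lower, with 44 of 9454 genes. edgeR called 10 lower with no filter on low counts (520 of 16665 genes), 7 with gates per 10000 UMIs (226 of 8495), and 2 and 6 without control replicate 1 or 2 (13 of 5436 and 153 of 6087). Both MOF cKO libraries were below both controls for 39 of 40 members, against 51.5% of all genes, the exception being Anln, a scaffold of the cytokinetic ring (36.3 and 19.9 CPM in control, 19.4 and 24.8 in MOF cKO). Mcm4, Cdt1 and Uhrf1 were also lower in CPM in both MOF cKO libraries, but with TMM scaling their log2 fold changes lay above 0, as did that of Anln. With library size alone as the scale, the median over all genes moved from -0.11 to -0.64 and all 40 members lay below 0.

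Ccnb2, a B cyclin, stood at 137 and 125 CPM in the E16.5 basal control libraries and 8.31 and 18.0 in MOF cKO. Its log2 fold change was -2.77 (SE 0.42), with an edgeR adjusted p of 0.0778. Cenpe, a kinetochore motor, was at 83.7 and 94.5 against 8.31 and 13.5 (-2.51, SE 0.44, adjusted p = 0.0881). Both genes separated the groups widely but missed the threshold. Ccnb1 was at 158 and 130 in control and 5.54 and 29.3 in MOF cKO (-2.48, SE 0.55, adjusted p = 0.123), and Pbk at 110 and 73.1 against 16.6 and 22.6 (-1.68, SE 0.37, adjusted p = 0.121). A count of 8.31 CPM in MOF cKO replicate 1 is 3 UMIs, so the depth of 360839 UMIs in its 21 basal cells limits every value of that library.

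Genes of both sets were low in these cells. Mki67, on the mitotic chromosome, was at 129 and 99.2 CPM in control and 8.31 and 63.1 in MOF cKO, and Top2a at 326 and 264 against 63.7 and 214. The 2 MOF cKO embryos were far apart for both genes, with replicate 1 lower. Pcna stood at 171 and 109 against 66.5 and 92.5, Mcm5 at 112 and 84.9 against 30.5 and 45.1, and Ccne1 at 40.2 and 25.4 against 2.77 and 11.3. For all 5 genes both MOF cKO libraries were below both controls, and none was called, with edgeR adjusted p from 0.212 (Ccne1) to 0.642 (Pcna). In wider lists of cell cycle genes, Ccng1, a cyclin G gene induced by p53, was the single gene of cell cycle control called in basal cells, at 31.9 and 19.0 CPM in control and 114 and 122 in MOF cKO (log2 fold change 2.75, SE 0.33, adjusted p = 0.0466). Cdkn1a, the cyclin-dependent kinase inhibitor p21, was at 68.2 and 25.2 against 485 and 264 (3.59, SE 0.54, adjusted p = 0.0778). Of the other 47 replication and 68 mitosis genes tested, edgeR called 0, with 16 and 21 at an unadjusted p below 0.05.

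Markers moved with the groups in the E16.5 basal gate. Of the markers that the gate did not use, the 5 of basal cells (Itgb4, Itga6, Col17a1, Trp63 and Krt15) summed to 2931 and 4405 CPM at the lowest and highest control and to 637 and 1080 in MOF cKO. The fibroblast markers summed to 1518 and 4924 in control and 502 and 774 in MOF cKO, and the endothelial markers to 39.2 and 81.3 against 15.8 and 22.2. These groups did not overlap, while those of the 6 suprabasal markers (789 and 1950 against 1263 and 3885) and the 5 immune markers (18.4 and 138 against 133 and 814) did. In both MOF cKO libraries the suprabasal markers summed to more than the basal markers, and in both controls to less. The paper describes differentiated cells with high Krt5 and low Krt1 in E16.5 MOF cKO skin. Whether the basal gate took in such cells was not tested. The part of these shifts in the lower levels of the members was not tested. Without cells of at least 10 immune UMIs, 21 and 21 MOF cKO basal cells remained and the mitosis sums were 407 and 1319, against 3091 and 2499 in control.

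Suprabasal cells at E16.5 numbered 9 and 13 in MOF cKO, the first under the minimum of 10 cells set for the edgeR test, and their levels are given as values only. The mitosis sum was 2133 and 1057 CPM in control and 67.5 and 158 in MOF cKO, and the S phase sum 573 and 493 against 98.6 and 329. In both sums the MOF cKO values were below the control values, at 7.06% of the control mean for mitosis and 40.1% for S phase. Mki67 stood at 96.5 and 38.7 in control and at 0 and 6.85 in MOF cKO, where a count of 0 in replicate 1 allows up to 15.6 CPM. Cdc20 was at 205 and 66.6 against 0 and 6.85, and Pcna at 70.4 and 72.6 against 36.3 and 58.2. Several S phase genes overlapped instead, among them Mcm3 (42.2 and 25.4 against 0 and 34.3) and Mcm4 (44.2 and 18.2 against 15.6 and 20.6). Suprabasal markers that the gate did not use summed to 37789 and 46888 CPM at the lowest and highest control and to 5112 and 13767 in MOF cKO. The basal markers stood at 2712 and 3919 against 145 and 980, and the immune markers at 10.1 and 19.4 against 67.5 and 75.4. The part of these shifts was not tested.

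Most of the calls on the members at E16.5 were in fibroblasts. edgeR called 28 of the 40 lower in MOF cKO, 12 of 17 S phase and 16 of 23 mitosis genes, and 0 higher, while 2.21% of 12569 genes were called lower and 2.43% higher. All 40 had a log2 fold change below 0 and both MOF cKO libraries below both controls, a separation that 35.8% of all genes showed. The median log2 fold change was -1.11 over the S phase and -1.14 over the mitosis genes, against 0.01 over all genes. The S phase sum was 1169 and 1093 CPM in control and 461 and 547 in MOF cKO, and the mitosis sum 1985 and 2297 against 905 and 921, in 518 to 1433 cells a library.

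Among the called genes, Ska1, which ties kinetochores to microtubules, fell from 38.3 and 36.4 CPM in control to 11.2 and 11.3 in MOF cKO, a log2 fold change of -1.60 (SE 0.15, edgeR adjusted p = 0.0243). Pbk fell from 61.5 and 70.9 to 19.4 and 21.7 (-1.57, SE 0.17, adjusted p = 0.0275). Hmmr, a spindle protein, fell from 47.7 and 69.1 to 18.8 and 19.1 (-1.53, SE 0.26, adjusted p = 0.0407). In these and in the next genes the groups were apart by more than the spread within either. The checkpoint kinase gene Bub1 fell from 27.5 and 25.2 to 8.14 and 9.18 (-1.48, adjusted p = 0.0267). Rrm2, of the enzyme that makes deoxynucleotides, fell from 101 and 100 to 32.0 and 35.3 (-1.46, adjusted p = 0.0243), and the helicase gene Cdc45 from 19.2 and 22.97 to 6.81 and 8.93 (-1.31, adjusted p = 0.0424). Of the genes whose promoters are printed above, Cdc20 fell from 113 and 126 to 46.0 and 42.0 (-1.32, adjusted p = 0.031) and Mcm5 from 80.3 and 70.7 to 29.9 and 29.9 (-1.21, SE 0.12, adjusted p = 0.0243). Mcm7 (-1.28, adjusted p = 0.0243), Cdk1 (-1.24, adjusted p = 0.0437) and Ccnb1 (-1.31, adjusted p = 0.0288), which was at 81.4 and 85.9 against 32.7 and 29.4, were also called.

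The 12 members not called in E16.5 fibroblasts were Mcm4, Mcm6, Rrm1, Cdc6 and Cdt1 of S phase and Mki67, Ube2c, Aurka, Cenpe, Cenpf, Tpx2 and Aspm of mitosis. The smallest of the 40 log2 fold changes was that of Mcm4, at 47.4 and 35.2 CPM in control and 30.8 and 29.0 in MOF cKO (-0.33, SE 0.15, edgeR adjusted p = 0.246). Mki67 was at 84.8 and 99.9 against 51.6 and 46.8 (-0.79, SE 0.19, adjusted p = 0.075). Apart from Mcm4, the members not called had an unadjusted p below 0.05, as did 25.2% of all genes.

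**Figure D2:**
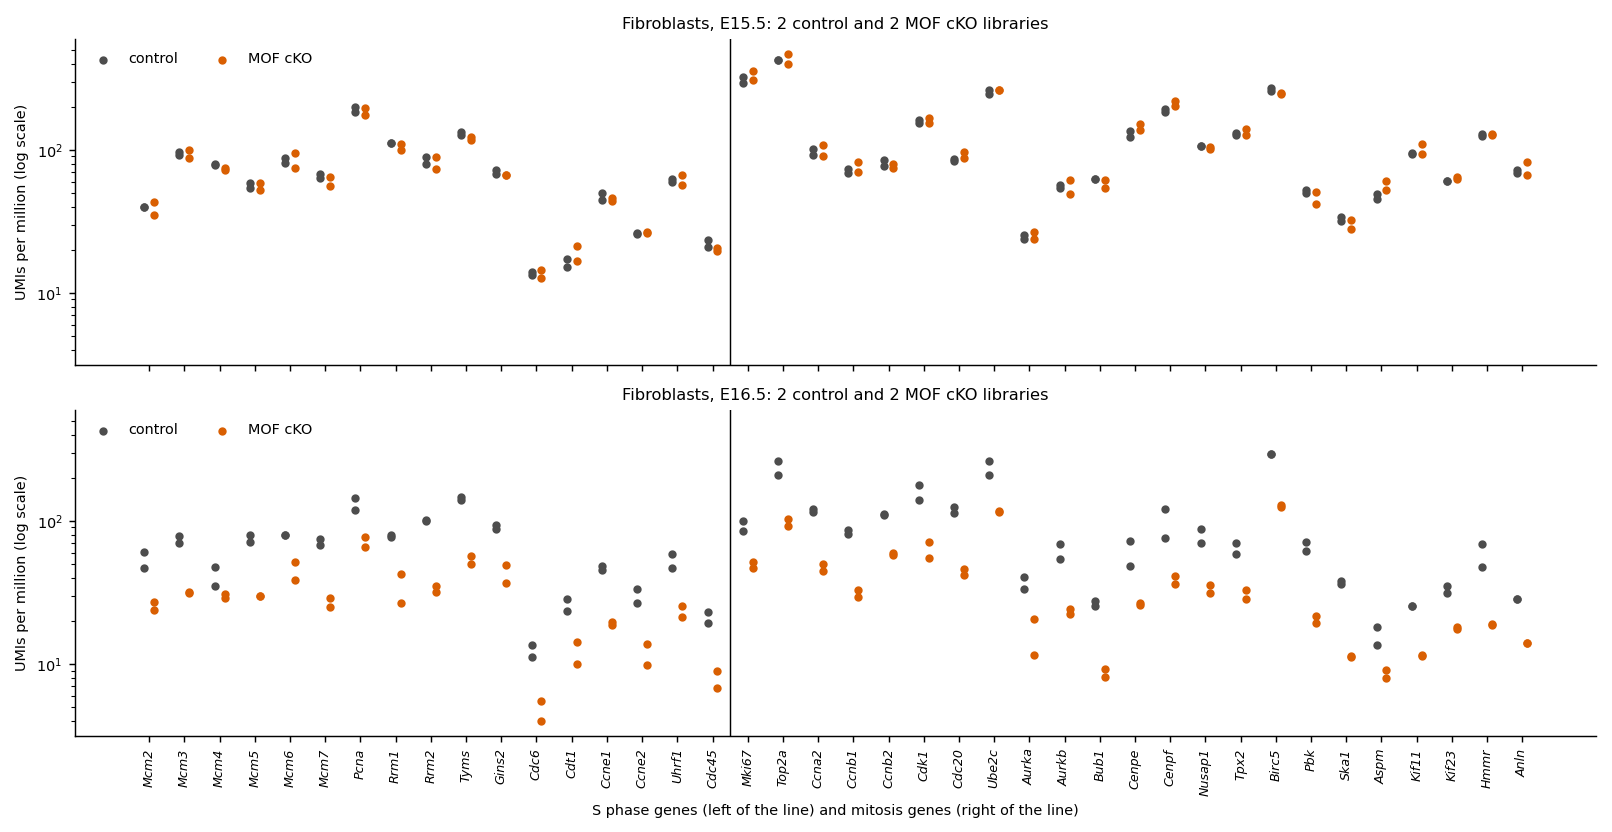
CPM (log scale) of each of the 40 genes in fibroblasts of the 2 control and 2 MOF cKO libraries at E15.5 (upper panel) and E16.5 (lower panel); each point is a library. At E15.5 the groups are intermixed or close for most genes, and at E16.5 both MOF cKO points lie below both control points for all 40.

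Genes of the wider lists were also called lower in E16.5 fibroblasts. Of 47 other replication genes tested, edgeR called 27 lower and 0 higher, led by Dscc1, of the clamp loader (log2 fold change -1.64, adjusted p = 0.0348), and Chaf1b, which places histones on new DNA (-1.60, adjusted p = 0.0369). Of 68 other mitosis genes, 31 were called lower and 0 higher, among them Gtse1 (-1.61, adjusted p = 0.0335) and the condensin gene Smc2 (-1.40, adjusted p = 0.0369). Of 41 genes of cell cycle control, 4 were called lower and 1 higher. Ccnd1, cyclin D1 of the step before S phase, fell from 194 and 163 CPM to 50.8 and 67.1 (-1.47, SE 0.15, adjusted p = 0.0267), and Btg2, an inhibitor of growth, rose (0.90, adjusted p = 0.0488). Cdkn1a was at 77.6 and 69.7 against 65.6 and 66.5 and was not called (-0.03, adjusted p = 0.901).

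The number of calls depended on the libraries. The count of 28 was 26 without control replicate 1, 0 without control replicate 2, and 1 without either MOF cKO replicate, while DESeq2 called 36. The genes called lower in those fits were 195 of 13414, 0 of 12646, 12 of 13412 and 22 of 12503, and 410 of 12569 in DESeq2. The fibroblast markers that the gate did not use summed to 11190 to 12300 CPM in control and 13584 to 14509 in MOF cKO, and the immune markers to 16.6 to 38.4 and 99.4 to 207. The suprabasal markers stood at 207 to 301 in control and 60.97 to 61.98 in MOF cKO, the muscle markers at 14.7 to 19.3 and 44.7 to 52.2, the endothelial markers at 21.004 to 21.2 and 30.3 to 32.1, and the pericyte markers at 53.1 to 59.2 and 68.4 to 84.4, all without overlap. Kat8, which Krt14-Cre should leave intact in these cells, was at 9.60 and 8.23 CPM in control and 2.81 and 5.39 in MOF cKO fibroblasts at E16.5, and at 9.18 and 9.62 against 6.83 and 5.98 at E15.5. The part of these shifts in the members' levels was not tested. Without cells of at least 10 immune UMIs, 28 members were again called and the mitosis sums were 1988 and 2296 in control and 905 and 925 in MOF cKO.

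In E16.5 endothelial cells the calls fell on mitosis genes, and whether these differed from the S phase genes was not tested. edgeR called 8 of 31 members tested, all lower and all of mitosis (8 of 18, against 0 of 13 S phase genes), where 0.548% of 6027 genes were called lower and 4.4% higher. Ccnb1 fell from 82.5 and 74.7 CPM to 11.98 and 13.9 (log2 fold change -2.38, SE 0.39, adjusted p = 0.00825), and Ube2c, the ubiquitin-conjugating enzyme of mitotic exit, from 192 and 298 to 39.9 and 49.6 (-2.32, SE 0.33, adjusted p = 0.0042). Cdk1 fell from 179 and 195 to 47.9 and 53.6 (-1.70, adjusted p = 0.00748). These gaps were larger than the spread within either group. Cdc20 fell from 137 and 141 to 24.0 and 39.7 (-1.94, adjusted p = 0.00858) and Aurka from 48.1 and 38.5 to 9.98 and 7.94 (-1.98, adjusted p = 0.0385). The other called genes were Cenpe (55.0 and 67.0 against 19.96 and 13.9, -1.72), Ccnb2 (213 and 143 against 47.9 and 57.6, -1.48) and Birc5 (364 and 244 against 110 and 83.4, -1.40). Pcna, by contrast, was at 82.5 and 87.9 in control and 93.8 and 75.5 in MOF cKO, with groups that overlapped.

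The median log2 fold change in E16.5 endothelial cells was -1.60 over the 18 mitosis genes and -0.31 over the 13 S phase genes, against 0.02 over all genes. Both MOF cKO libraries were below both controls for all 18 mitosis genes tested and for 8 of 13 S phase genes, against 32.4% of all genes. The filter on low counts chose the tested genes, and a gene with enough UMIs in the controls alone could pass it. Hmmr, which was not tested, was the only mitosis gene of the 23 whose groups overlapped. It stood at 13.74 and 32.97 CPM in control and 13.97 and 7.94 in MOF cKO. The sums were 1952 and 1971 CPM in control and 617 and 558 in MOF cKO for mitosis, and 900 and 776 against 613 and 491 for S phase. The other lists gave 6 of 35 mitosis genes lower, such as Kif20b (-3.20, edgeR adjusted p = 0.0154), and 1 of 28 replication genes, Tk1 (-1.89, adjusted p = 0.0227). Cdkn1a was the called gene of cell cycle control and rose from 34.4 and 28.6 to 120 and 75.5 (1.88, SE 0.38, adjusted p = 0.02).

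These endothelial sums rest on 11 and 60 control and 25 and 26 MOF cKO cells, and immune markers differed between the groups. The 5 immune markers summed to 34.4 to 103 CPM in control and 2583 to 4121 in MOF cKO. The endothelial markers that the gate did not use stood at 2463 to 2969 against 1814 to 2077, the erythroid markers at 21716 to 31603 against 2882 to 21558, and the muscle markers at 16.49 to 20.6 against 25.8 to 67.9, all without overlap. Kat8 was at 13.7 and 9.89 CPM in control and 0 and 3.97 in MOF cKO, which are 2, 9, 0 and 2 UMIs. What part these shifts had in the members' levels was not tested. Without cells of at least 10 immune UMIs, 20 and 19 MOF cKO cells remained, with mitosis sums of 550 and 512 against 1952 and 2059 in control. edgeR then called 0 of 29 members and 0 of 5070 genes, with 18 members at an unadjusted p below 0.05. DESeq2, on all gated cells, called 1 member.

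**Figure D3:**
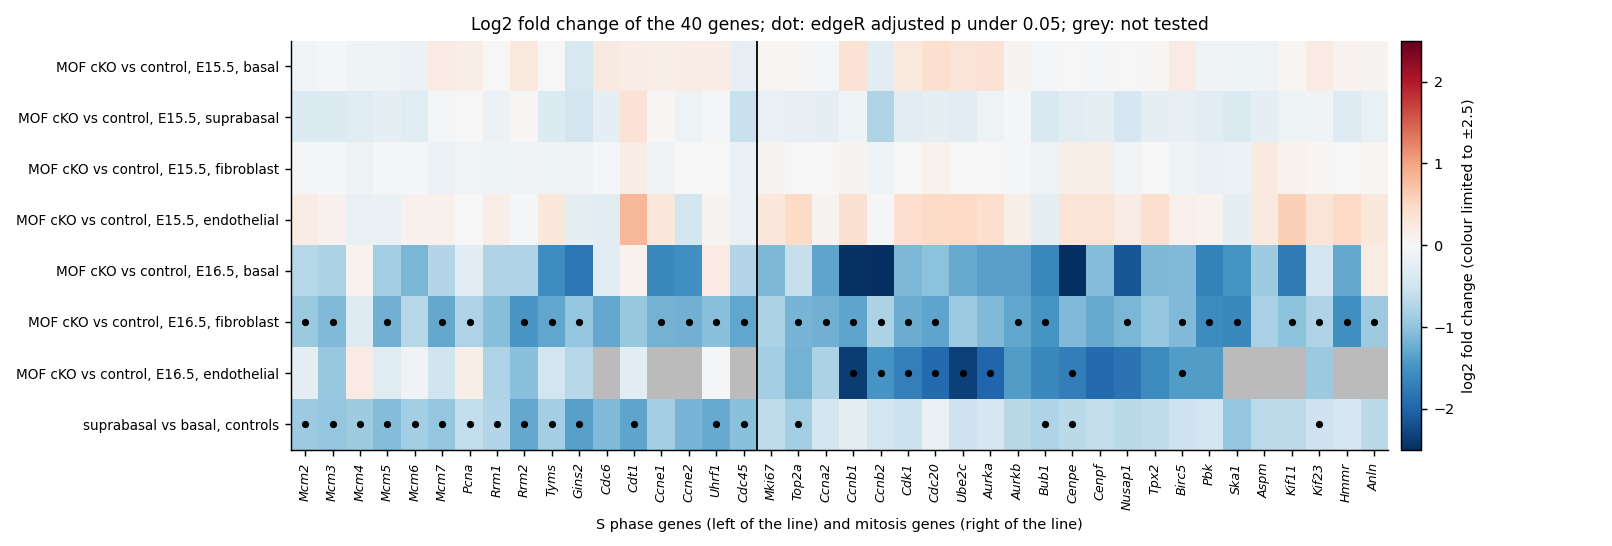
Log2 fold change of the 40 genes (columns, S phase left and mitosis right of the line) in 8 comparisons (rows), coloured from blue (lower) to red (higher) and limited to 2.5 in size; dots mark an edgeR adjusted p under 0.05 and grey cells were not tested. The E15.5 rows carry no dot, the E16.5 fibroblast row 28, the E16.5 endothelial row 8 and the suprabasal against basal row 18.

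Whether the MOF cKO effect was the same at both stages was put to a test of the stage by genotype interaction over the 8 libraries. In fibroblasts, a fit added after the data were seen, 19 of 40 members had an effect that was lower at E16.5 than at E15.5 (9 of S phase, 10 of mitosis), where 0.839% of 14895 genes were called in that direction and 0.423% in the other. All 40 differences were below 0, with medians of -1.11 (S phase) and -1.19 (mitosis) against -0.0045 over all genes. Ska1, at 32.0 and 33.8 CPM in control and 27.9 and 32.3 in MOF cKO at E15.5, had a difference of -1.48 (SE 0.14, edgeR adjusted p = 0.0194). Bub1 (-1.37, adjusted p = 0.0194), Rrm2 (-1.41, adjusted p = 0.0248), Cdc20 (-1.45, adjusted p = 0.0333) and Ccnb1 (-1.42, adjusted p = 0.0333) were also called. The count of 19 depended on the libraries. It fell when any 1 of them except E16.5 control replicate 1 was left out, in most of these fits to 0. Without E16.5 control replicate 1 it rose. Each such fit left 1 library in a group of its stage, so the spread came from the others.

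In basal cells the stage difference was called for 0 of 40 members, against 0.0152% of 13189 genes, although 25 members had an unadjusted p below 0.05 where 11.5% of all genes did, and DESeq2 called 5. The smallest p were those of Cenpe (log2 difference -2.58), Ccnb1 (-2.89), Ccnb2 (-2.55) and Aurka (-1.78), with an edgeR adjusted p of 0.2 for Cenpe. The median difference over the members was -1.29, against -0.28 over all genes.

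Within the controls, suprabasal cells were compared with basal cells of the same library in 5 libraries. edgeR called 18 of 40 members lower in suprabasal cells and 0 higher, where 14.6% of 12753 genes were called lower and 14.9% higher. The calls fell on 14 of 17 S phase genes and on 4 of 23 mitosis genes (Top2a, Bub1, Cenpe and Kif23). In E15.5 control replicate 2, Top2a (408 against 384 CPM), Cenpe (127 against 119) and Kif23 (65.1 against 64.8) were higher in suprabasal than in basal cells. The mitosis sum was also higher there, at 3075 against 2670, while Bub1 was lower (41.0 against 44.3). In the other control libraries these genes and the mitosis sum were lower in suprabasal cells. The median log2 fold change was -0.97 over the S phase and -0.59 over the mitosis genes, and all 40 were below 0. Both sums from a library share its chemistry, and the library was a block in the fit. Their depth differed, as with 41943737 basal and 3025396 suprabasal UMIs in E15.5 control replicate 2. The basal markers that the gates did not use overlapped between the layers, at 2388 to 4405 CPM in basal and 2527 to 6885 in suprabasal cells of the controls. In the E17.5 control they were at 2388 in basal and 6885 in suprabasal cells, opposite to the gate names. The suprabasal markers were at 421 to 1950 and 4022 to 46888, and the fibroblast markers at 1214 to 11500 and 328 to 722. The part of these markers in the members' levels was not tested.

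Cdt1, which licenses replication origins, stood at 31.2, 29.6, 41.4, 34.9 and 38.7 CPM in basal cells of the 5 controls (E15.5 replicates 2 and 3, E16.5 replicates 1 and 2, E17.5). In suprabasal cells of the same libraries it was at 11.2, 11.9, 12.1, 15.7 and 12.8. It fell in all 5, with a log2 fold change of -1.32 (SE 0.13, edgeR adjusted p = 0.000481). Uhrf1, which copies DNA methylation, fell from 130, 125, 99.2, 83.1 and 78.5 to 67.4, 47.9, 34.2, 24.2 and 28.5 (-1.25, SE 0.12, adjusted p = 0.000444). Mcm5 fell from 77.9, 70.3, 112, 84.9 and 82.5 to 41.6, 38.4, 34.2, 43.6 and 24.9 (-1.07, SE 0.15, adjusted p = 0.00231). For all 3 genes the suprabasal values lay below every basal value, a separation that 10 members showed, against 7.67% of all genes. Gins2 (-1.35), Rrm2 (-1.28), Mcm7 (-0.97), Mcm3 (-0.97) and Mcm2 (-0.91) were the next named, with adjusted p of 0.0085, 0.0162, 0.00205, 0.00512 and 0.00375.

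The log2 fold changes smallest in size among the 40 were those of Cdc20 and Ccnb1. Cdc20 was at 109, 109, 183, 166 and 55.2 CPM in basal cells and 145, 89.7, 205, 66.6 and 36.1 in suprabasal cells, higher in the suprabasal cells of E15.5 replicate 2 and E16.5 replicate 1 and lower in the other 3 libraries. Its log2 fold change was -0.16 (SE 0.23, edgeR adjusted p = 0.619), and that of Ccnb1 -0.23 (SE 0.22, adjusted p = 0.463). Among other genes, 32 of 47 replication genes were lower, such as Hells (-1.33, adjusted p = 0.00139), and 18 of 68 mitosis genes were lower and 1 higher. Cdkn2b, the kinase inhibitor p15, was at 0 to 0.619 CPM in basal cells and rose to between 6.28 and 20.6 in suprabasal cells (adjusted p = 0.000452), and Cdkn1a rose with a log2 fold change of 2.23 (adjusted p = 0.00137). Ccnd1 fell (-1.26, adjusted p = 0.000583). The count of members called fell below 18 without either E16.5 control and rose above it without E15.5 control replicate 2.

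The share of cells with at least 1 UMI of Mki67 was read as a count of cells that carry a division transcript. In basal cells it was 58.2% and 60.4% in control and 56.7% and 69.4% in MOF cKO at E15.5, and 47.7% and 48.9% against 9.52% and 40.9% at E16.5. In fibroblasts it was 42.0% and 45.8% against 41.6% and 42.7% at E15.5, and 32.1% and 35.4% against 18.7% and 16.8% at E16.5. At E16.5 both MOF cKO libraries were below both controls in each of these classes, and at E15.5 the groups overlapped. The E16.5 fibroblast shares have Wilson 95% intervals of 28.7 to 35.8 and 32.9 to 37.9 in control and 15.6 to 22.3 and 14.7 to 19.2 in MOF cKO, which cover counting error only. Suprabasal shares were 59.2% and 48.8% against 29.8% and 64.8% at E15.5, and 38.7% and 21.2% against 0 of 9 cells (which allows up to 33.3%) and 15.4% at E16.5. Endothelial shares were 44.8% and 48.7% against 49.8% and 49.3%, then 18.2% and 31.7% against 36% (9 of 25 cells) and 23.1%.

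Cells that should not divide set the background for these shares. They were pooled over the libraries, and the E16.5 MOF cKO libraries gave 0 granular and 2 and 6 muscle fibre cells, so the background is not that of those libraries. Granular keratinocytes, with at least 50 Lor UMIs, were positive in 14.1% of 92 cells (median 9760 UMIs), and muscle fibre cells in 27.5% of 69 (median 18198 UMIs). With every cell thinned to 4000 UMIs these fell to 10.0% and 7.25%. At that depth the basal share was 38.0% and 40.7% in control and 34.4% and 46.3% in MOF cKO at E15.5, and 26.8% and 25.7% against 0% and 14.3% at E16.5. The 0% is 0 of 20 cells, which allows up to 15%. Fibroblasts stood at 33.2% and 34.4% against 31.8% and 33.4%, then 17.7% and 23.4% against 9.16% and 8.94%. Suprabasal cells stood at 45.2% and 28.9% against 18.9% and 43.3%, then 38.5% and 13.3% against 0 of 9 cells (which allows up to 33.3%) and 8.33%. Endothelial cells stood at 32.3% and 28.8% against 25.0% and 28.6%, then 9.09% and 15% against 4% and 3.85%. Between 0 and 43 cells of a class and library were too shallow to thin.

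**Figure D4:**
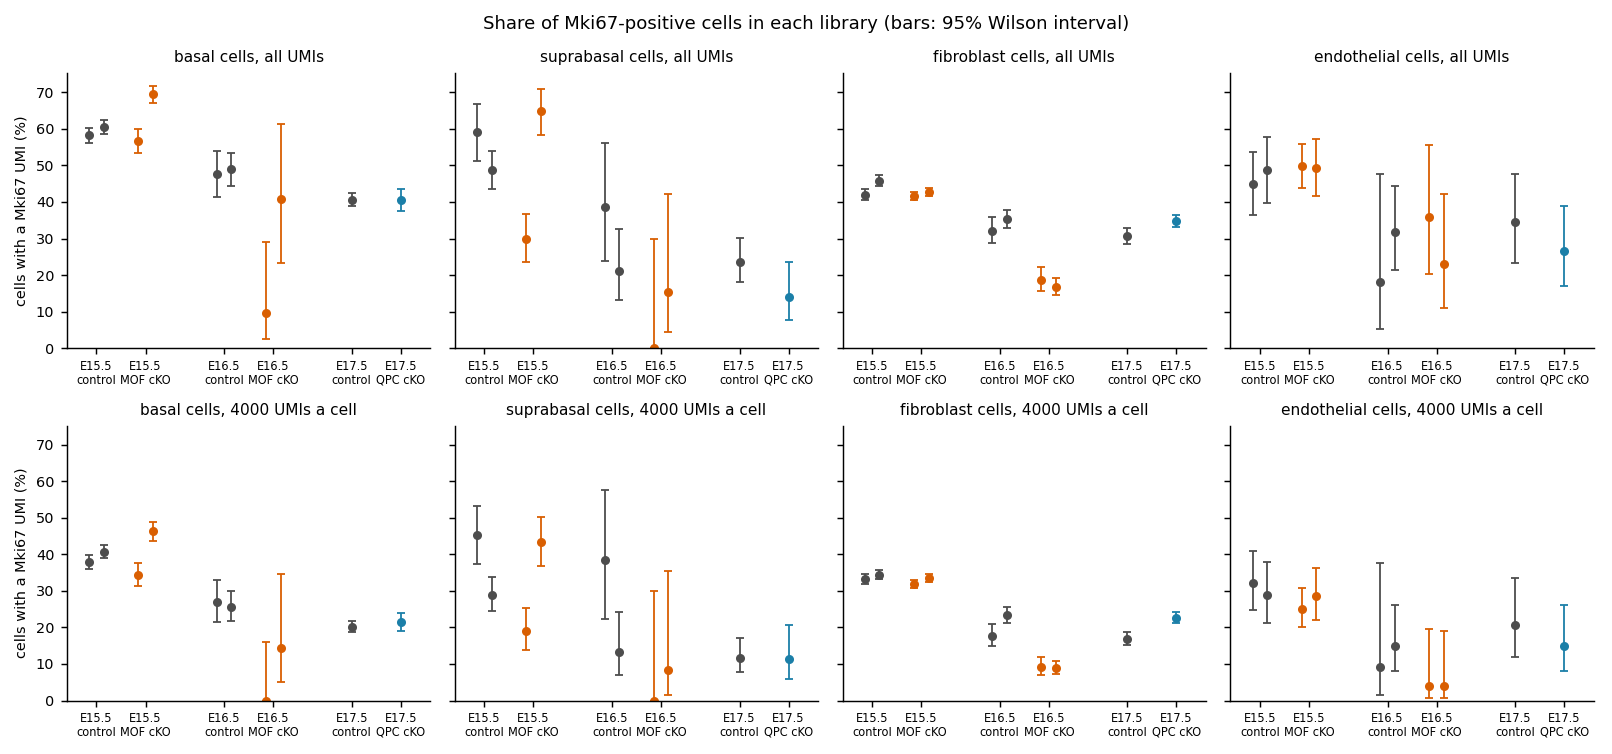
Percent of cells with a Mki67 UMI in each library, by cell class, stage and group, from all UMIs (upper row) and with each cell thinned to 4000 UMIs (lower row); points are libraries and bars are Wilson 95% intervals. In E16.5 fibroblasts the MOF cKO points (18.7% and 16.8%) lie below the controls (32.1% and 35.4%), and in basal and suprabasal cells of E16.5 MOF cKO the intervals are wide.

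Over both stages the share in MOF cKO differed from control by -9.66 percentage points in basal cells (exact two-sided permutation p = 0.5, 0.5 after Benjamini-Hochberg adjustment over the 4 classes). It differed by -14.5 in suprabasal cells (exact p = 0.222, adjusted 0.444; no minimum of cells was set for this test, and without the E16.5 library of 9 cells it was -10.6, exact p = 0.389), -8.88 in fibroblasts (exact p = 0.111, adjusted 0.444) and 3.72 in endothelial cells (exact p = 0.389, adjusted 0.5). The smallest p that the 36 arrangements allow is 0.0556, so this design could not reach 0.05. Within E15.5 the differences were 3.77, -6.68, -1.77 and 2.83 points, and within E16.5 they were -23.1, -22.3, -16.0 and 4.61, where the smallest exact p is 0.333. On thinned cells the endothelial difference was -5.94, the opposite sign, and -8.12 within E16.5.

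In fibroblasts and basal cells, thinned cells with a Mki67 UMI also held the other mitosis genes. Where only 1 cell was positive this could fail. In E16.5 MOF cKO, the 1 positive cell held 0 of these genes in endothelial replicate 1 and in suprabasal replicate 2. In fibroblasts, Mki67-positive cells held on average 7.28 to 10.3 of the other 22 mitosis genes, against 0.71 to 2.17 in negative cells, over the 10 libraries. Of the 17 S phase genes, positive fibroblasts held 2.26 to 4.57 and negative fibroblasts 1.27 to 2.99. In basal cells, leaving out E16.5 MOF cKO with its 20 and 21 thinned cells, Mki67-positive cells held 3.102 to 4.85 S phase genes and negative cells 2.58 to 4.35, while the other mitosis genes were at 8.17 to 9.35 and 0.93 to 3.44. Within a library the S phase value was higher in the positive cells in all of these but E16.5 control replicate 2 (3.102 and 3.49), and the widest gap was in the E17.5 control (4.85 and 2.94).

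At E17.5 there was 1 library a group, so the values compare these libraries, without a replicate check and without a p. In basal cells the S phase sum was 1209 CPM in control and 1161 in QPC cKO, and the mitosis sum 1337 and 1389. With exclusive gates the S phase sum was 1459 and 1164 and with gates per 10000 UMIs 1421 and 1112, and the members with a log2 ratio below 0 went from 16 to 26 and 22. Fibroblast markers in this gate summed to 11500 CPM in control and 2360 in QPC cKO, and their part was not tested. Of the 40 members, all with at least 100 UMIs over both libraries, 0 were past a log2 ratio of 1 in size, where 14.1% of 13320 such genes were that far lower and 2.16% that far higher in QPC cKO. The exact Poisson 95% intervals, which cover counting error only, were apart for 21 members, 11 lower and 10 higher, where they were apart for 32.8% of those genes lower and 30% higher. Ccne1 differed most, at 36.6 (35.1 to 38.1) in control and 19.96 (18.3 to 21.8) in QPC cKO. Its log2 ratio was -0.87 (-1.01 to -0.74). The other E cyclin, Ccne2, was at 16.9 and 12.2 (-0.48), while Uhrf1 was at 78.5 and 98.0 (0.32). Mki67 was at 121 and 125, Top2a at 178 and 185, Ccnb1 at 48.8 and 55.7, Pcna at 155 and 143 and Mcm5 at 82.5 and 83.4. The share of Mki67-positive basal cells was 40.6% and 40.5%.

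In fibroblasts of the same stage, which are not the target of Krt14-Cre, all 40 members were higher in the QPC cKO library than in the control library. The median log2 ratio was 0.73, against 0.11 over all genes, and 5 members were past a log2 ratio of 1, where 2% of 12891 genes were that far higher and 2.22% that far lower. Aurka was at 10.4 and 23.8 CPM (log2 ratio 1.19, 1.03 to 1.36), Ube2c at 92.3 and 204 (1.15), Cenpf at 69.3 and 146 (1.07), Ccnb1 at 33.1 and 68.4 (1.05) and Top2a at 140 and 287 (1.04). Pbk, at 28.2 and 56.2 (0.996), was just short of that limit. The intervals were apart for 38 of 40, where 35.7% of those genes were higher with intervals apart. The mitosis sum was 1133 and 2111 and the S phase sum 832 and 1035, so the mitosis genes were at 186% and the S phase genes at 124% of the control library. Mki67-positive fibroblasts were 30.6% and 34.8% of cells.

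**Figure D5:**
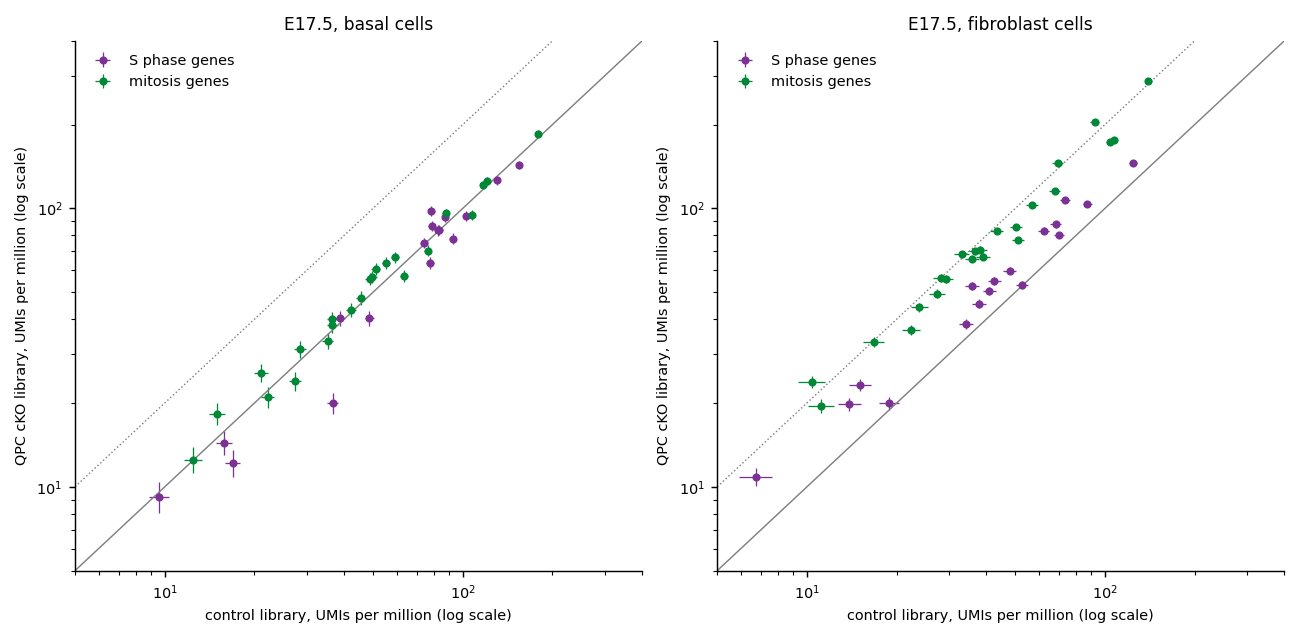
CPM (log scales) of the 40 genes at E17.5 in the control library (horizontal) and the QPC cKO library (vertical), in basal cells (left) and fibroblasts (right); points are genes and bars are exact Poisson 95% intervals, the solid line marks equal levels and the dotted line a level that is 2-fold higher in QPC cKO. Basal genes scatter about the solid line, with Ccne1 below it at 36.6 and 19.96, and all 40 genes lie above it in fibroblasts.

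Suprabasal cells at E17.5 had sums of 426 and 433 CPM for S phase and 474 and 471 for mitosis, and of 25 members with at least 100 UMIs 0 were past a log2 ratio of 1, where 1.16% of 6961 genes were that far lower and 0.761% that far higher. The limit on detected genes left out 51.4% and 70.2% of the suprabasal cells, and without it the sums were 704 and 533 for S phase and 1445 and 1516 for mitosis. In this gate the basal markers summed to 6885 CPM in control and 4746 in QPC cKO, and the suprabasal markers to 4022 and 4702. The basal markers were at 2388 and 3459 in the basal gate. What part this had in the members' levels was not tested. Among those 25 members Kif11, the motor that keeps spindle poles apart, differed most, at 18.7 and 11.01 (log2 ratio -0.76, -1.49 to -0.09). The Poisson intervals of its 2 levels overlapped. In 55 and 60 endothelial cells the mitosis sum was 820 and 1393 and the S phase sum 871 and 697. Fibroblast markers in this gate summed to 822 in control and 2603 in QPC cKO and pericyte markers to 16.02 and 76.2, and their part was not tested. Of 12 members with enough UMIs, Ube2c (42.7 and 146, log2 ratio 1.78) and Ccna2 (35.3 and 71.1, 1.01) were past the limit, where 1.81% of 3309 genes were that far higher and 1.51% that far lower. The order of the mitosis sums turned with no upper limit on detected genes (1542 and 1195) and under 5% mitochondrial UMIs (1059 and 920). With no upper limit, 0 of 30 endothelial members were past a log2 ratio of 1 and 29 lay below 0, with a median of -0.42.

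Several features of the E17.5 libraries stand beside these values. Under the limit of 6000 detected genes, 28.2% of basal cells in the control library and 44.2% in the QPC cKO library were left out. In any other library the limit left out at most 15.4% of basal cells. The mitosis sum in the E17.5 basal cells left out was 4683 and 4209 CPM. Of the 1597 control cells over the limit, 1208 (75.6%) carried a barcode also found in QPC cKO. With no limit the basal mitosis sum was 2744 and 3126 and the fibroblast sum 1540 and 2715. Without the shared barcodes, 5 fibroblast members were again past a log2 ratio of 1, with a median of 0.71. In the control library, 1275 of 2997 cells in the epithelial gates had at least 30 collagen UMIs, against 100 of 1138 in QPC cKO. The fibroblast markers that the gate did not use summed to 22723 CPM in control and 16366 in QPC cKO fibroblasts. The part of these features in the members' levels was not tested. With gates scaled to 10000 UMIs a cell, 1 fibroblast member was past the limit, 1 lay below 0 and the median was 0.61.

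Likeness to the members was read over 39 sums of a library and class as the Pearson correlation of log2(CPM + 1) with the mean of the 40. Among the 10 genes outside the list with the highest r of 8387 were Smc4 (0.968), Melk (0.952), Smc2 (0.951), Shcbp1 (0.946), Dek (0.934), Prc1 (0.929), Lmnb1 (0.928), Ccdc34 (0.927) and Ezh2 (0.924). Smc4 and Smc2 are condensin subunits, Melk is a kinase of dividing cells and Prc1 bundles the central spindle. Each member is part of the mean it is compared with, which raises its r. Of the members themselves, 22 ranked in the top 100, and Rrm1, Cdc45 and Tyms were the only S phase genes among them. Cdc6 and Cdt1 ranked 1232 and 1244. The points share libraries and stages, so this is a description.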

How the data were processed

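Single cells of mouse embryonic back skin were released with collagenase and trypsin and captured on the 10x Chromium (3′ counting). The authors made UMI counts per gene and barcode with Cell Ranger on mm10 and deposited them as count matrices. The submitters' processing notes name versions 1.3.1 and 6.1.2. The counts were used as deposited. A cell was kept if it had more than 1000 but fewer than 6000 genes detected and less than 10% mitochondrial UMIs, and no doublet caller was run. Classes were gated on UMIs of a cell: basal cells by Krt5 + Krt14 of at least 10 and Krt1 + Krt10 under 10, suprabasal cells by Krt1 + Krt10 of at least 20, fibroblasts by Col1a1 + Col3a1 of at least 30 and Krt5 + Krt14 under 10, and endothelial cells by at least 2 of Pecam1, Cdh5 and Kdr.

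UMIs were summed per library and class and tested with edgeR 4.0.16 (quasi-likelihood, TMM scaling, filterByExpr, R 4.3.3), with p-values Benjamini-Hochberg adjusted over all genes tested. Only the libraries compared entered a fit, at least 10 cells a sum were required, and DESeq2 1.42.0 was an alternative. Nothing in the labels says how the replicates were bred, so p-values measure the spread between these libraries. With 1 library a group at E17.5 no test was made, and genes with at least 100 UMIs over both libraries were compared by their ratio, with exact Poisson 95% intervals. Shares carry Wilson 95% intervals, and a count of 0 was taken to allow 3 counts. Intervals and limits cover counting error only. Shares were compared by exact permutation within stages. Median depth of kept cells was 9600 to 22340 UMIs. The scripts were tested on simulated counts in which 200 genes were changed. Of 2-fold changes, 4% were called in E15.5 basal, 0% in E16.5 basal and 0.5% in E16.5 endothelial fits. The share was 79.5% in E15.5 and 27.5% in E16.5 fibroblasts. Of 4-fold changes, 45% were called in E16.5 basal cells. For the basal stage difference 0% of 2-fold and 9.5% of 4-fold changes were called. So a count of 0 members called does not show that levels were equal.

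All 40 members are accounted for by counts and ranges. Those given by library were Mki67, Top2a, Ccnb1, Pcna, Mcm5 and Ccne1 in basal cells and, per comparison, up to 8 called members whose groups did not overlap, by size of change (up to 4 of smallest p where none was called, and up to 6 by size at E17.5). Up to 4 genes of each wider list followed the same rule. Cdkn1a and Ccnd1 were planned for every comparison, but not all of their values are given. Ccnd1 is given only for E16.5 fibroblasts and between the layers, where it was called. Values outside that rule (Anln, Mcm4, Cdt1 and Uhrf1 in E16.5 basal cells, single genes in E16.5 suprabasal cells, Mcm5, Mcm7, Cdk1, Mcm4 and Mki67 in E16.5 fibroblasts, Pcna in endothelial cells, Cdc20 and Ccnb1 between the layers, and Kat8) were chosen after their values were seen. Hmmr in E16.5 endothelial cells was also chosen after its values were seen. The members and lists were chosen with earlier results of these data known. Of the 10 genes most like the members, 1 is not reported here.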

Additional observations from a re-analysis of the deposited data

Results flagged for a closer look

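The MOF cKO effect on 19 members differed between E15.5 and E16.5 fibroblasts by the interaction test in edgeR, all 19 lower at E16.5. No weighing of this difference was made, and stage, chemistry and gene list changed together. At E17.5 the basal cells left out for having at least 6000 detected genes held 4683 CPM of the mitosis members in the control library and 4209 in the QPC cKO library, above the 1337 and 1389 in the cells kept. Of these cells 87.2% and 84.4% had a Mki67 UMI.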

How the results depend on the processing

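The count of members called moved by more than 1.5 times under several settings. With all libraries in the fit these members were all lower. The share of all genes called lower in the same fit follows each such count. With no filter on low counts it was 10 in E16.5 basal cells (3.12%), 13 in E16.5 endothelial cells (0.582%), and 8 (basal, 1.06%) and 37 (fibroblast, 1.48%) for the difference between stages. DESeq2 gave 4 (0.465%), 1 (0.0664%), 5 (0.303%) and 37 (3.78%) for the same comparisons, and library size alone gave 33 (1.63%) for the fibroblast stage difference. Gates per 10000 UMIs gave 7 in E16.5 basal cells (2.66%), and 1 (0.0536%) and 31 (1.39%) for the basal and fibroblast stage differences. In E16.5 endothelial cells the count was 3 with no upper limit on detected genes (0.400%), 13 with exclusive gates (1.19%) and 0 without cells of at least 10 immune UMIs (0%). Leaving out each library in turn gave 0 to 21 in E15.5 basal, 0 to 17 in E15.5 suprabasal, 0 to 6 in E16.5 basal, 0 to 26 in E16.5 fibroblast and 7 to 11 in E16.5 endothelial cells, 12 to 24 between the layers, and 0 to 1 (basal) and 0 to 35 (fibroblast) for the stage difference. The causes were not tested.

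At E17.5 the members past a log2 ratio of 1 in size were 1 in suprabasal cells with under 5% mitochondrial UMIs and 1 with gates per 10000 UMIs, and 1 in fibroblasts with those gates. In endothelial cells they were 0 with no upper gene limit and with under 5% mitochondrial UMIs, and 1 with exclusive gates and 1 without immune cells. The endothelial difference in the Mki67 share turned to -5.94 points in thinned cells and -3.25 with at least 2 UMIs. Cdkn1a, not called in the next 4 comparisons with all libraries, changed sign in E15.5 endothelial cells with no upper limit (-0.016), under 5% mitochondrial UMIs (-0.31), exclusive gates (-0.20) and without immune cells (-0.16). With 1 library left out it ran from -0.27 to 2.04 in E15.5 basal, -0.45 to 1.24 in E15.5 suprabasal and -0.0852 to 0.0173 in E16.5 fibroblast cells. Without E15.5 MOF cKO replicate 6 edgeR called it higher in basal (2.04, adjusted p = 4.05e-05, against 0.511 with both) and suprabasal cells (1.24, adjusted p = 0.00237, against 0.729). A fit that leaves 1 library in a group takes the spread from the other group alone and assumes that the lone library varies like it.

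Of the 1117 alternatives for 76 called log2 fold changes, 855 stayed past the threshold, 262 did not and 0 reversed. The replicate numbers at E16.5 gave no sign of pairing (correlation of deviations -0.08, -0.02 and -0.06 in basal, fibroblast and endothelial cells, 2 pairs). With 2 libraries a group the second pair mirrors the first, so these values cannot exclude a pairing. With a replicate block, 0, 26 and 8 members were called. Settings of the edgeR test in E16.5 suprabasal cells were not run, since 1 library held 9 cells, under the minimum of 10. The immune, shared barcode and fibroblast stage settings were chosen after seeing the data. Depth limits the E16.5 MOF cKO basal, suprabasal and endothelial sums, of 9 to 26 cells each.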
